A study of Homo sapiens with 6 samples.

Results

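The 10 genes TGFB1, TGFB2, TGFB3, TGFBR1, TGFBR2, SMAD2, SMAD3, SMAD7, SKI and SKIL make up the core of TGF-beta signaling, and their chromatin was examined for regions occupied by ZNF469, a large zinc finger protein. The genes were chosen by name, 10 of 20007 protein-coding genes, with earlier results of these data known. A region was assigned to a gene when it overlapped the gene body or the 50 kb on either side of it (GENCODE annotation, hg38). By this rule 44 of the 19108 regions found with full-length ZNF469 belonged to these genes, and 0 of the 54 regions found with dZF-ZNF469, from which most of the zinc fingers were deleted.

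The study profiled ZNF469 in the human line LX-2 by CUT&RUN, which releases and sequences the DNA that a nuclease tethered to a bound antibody can reach. LX-2 was immortalized from hepatic stellate cells, which lay down collagen in the injured liver. Every group carried a piggyBac transgene under doxycycline control, encoding HA-tagged ZNF469 either in full or as dZF-ZNF469, and all 6 libraries, 3 for each construct, came from cells given 1 ug/mL doxycycline for 24 h in medium with an ascorbic acid derivative. The antibody was raised against ZNF469 itself and not the tag, so the product of the transgene and the ZNF469 of the cells' own gene cannot be told apart. The labels give each construct its own clone name, so construct and cell line cannot be told apart, and no list from uninduced cells or cells without the transgene was used here. Each construct was represented by 1 list of regions pooled over its 3 libraries, so no value per library, no spread between replicates and no test were available. No expression was measured in these files, so the identity of the cells could not be checked against marker genes.

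TGF-beta ligands are secreted in a latent form and, once released, bind the type II receptor TGFBR2, which recruits and activates the type I receptor TGFBR1. TGFBR1 phosphorylates SMAD2 and SMAD3, which join SMAD4, enter the nucleus and act on genes together with other factors, among them AP-1 (dimers of JUN and FOS proteins). SMAD7, SKI and SKIL restrain the pathway, and in the liver TGF-beta is a main driver of stellate cell activation and collagen production.

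The windows that carry the contrasts described further on are printed here first, each with 201 bases centered on the summit, the position of highest coverage of a region, on hg38. The AP-1 site, searched as TGACTCA or its reverse complement TGAGTCA, is in capitals where a window holds one. The first lies in intron 1 of SMAD3 and had the highest coverage of all 44 regions, and the next, in intron 3 of TGFBR2, is an intronic region with an AP-1 site 12 bp from its summit. The last pair show promoter regions of high fold enrichment that hold no AP-1 site, in intron 5 of SMAD3 and at the main start of TGFBR2, the latter chosen after its values were seen.
SMAD3, chr15:67150573-67150773, + strand: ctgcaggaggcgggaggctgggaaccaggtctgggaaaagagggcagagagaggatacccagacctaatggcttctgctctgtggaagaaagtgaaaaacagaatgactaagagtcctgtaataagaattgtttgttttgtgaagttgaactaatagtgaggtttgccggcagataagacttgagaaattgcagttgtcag
TGFBR2, chr3:30659383-30659583, + strand: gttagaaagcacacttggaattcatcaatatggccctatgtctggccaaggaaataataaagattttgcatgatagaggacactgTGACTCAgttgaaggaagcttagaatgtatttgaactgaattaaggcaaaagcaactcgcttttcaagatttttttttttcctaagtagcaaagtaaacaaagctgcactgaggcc
SMAD3, chr15:67178722-67178922, + strand: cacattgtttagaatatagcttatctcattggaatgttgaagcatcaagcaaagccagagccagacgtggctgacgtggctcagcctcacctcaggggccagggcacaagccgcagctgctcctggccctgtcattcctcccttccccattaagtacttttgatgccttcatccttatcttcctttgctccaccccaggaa
TGFBR2, chr3:30606353-30606553, + strand: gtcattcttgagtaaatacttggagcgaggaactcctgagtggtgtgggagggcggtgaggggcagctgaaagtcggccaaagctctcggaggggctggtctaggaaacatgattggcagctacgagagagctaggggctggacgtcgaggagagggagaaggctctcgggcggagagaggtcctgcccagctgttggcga

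Of the 44 regions, 11 held an AP-1 site within 100 bp of the summit, and 1 of them held more than 1, for 12 sites in all. They are given with 10 bases on each side, each read on the strand that spells TGACTCA, to show how far the surrounding bases differ around the shared 7 letters.
TGFB1, chr19:41323714-41323740, − strand: gtgtgtgggaTGACTCAggacccatga
TGFB2, chr1:218351890-218351916, + strand: aaagggctaaTGACTCActgttgaacc
TGFB2, chr1:218377433-218377459, − strand: gaaagagacaTGACTCAcacataccat
TGFB2, chr1:218463679-218463705, + strand: tatttctgcaTGACTCActgggccttc
TGFBR2, chr3:30659458-30659484, + strand: gaggacactgTGACTCAgttgaaggaa
SMAD3, chr15:67041766-67041792, + strand: cagaagaaaaTGACTCAcctaaggtca
SMAD3, chr15:67076368-67076394, + strand: agaaacgcagTGACTCAcgcgcctgtc
SMAD3, chr15:67097065-67097091, − strand: gatgaagaaaTGACTCAcccaaggaga
SMAD3, chr15:67125676-67125702, − strand: cccctgggcaTGACTCAgaggagtcag
SMAD7, chr18:48873496-48873522, − strand: cgaggccgcaTGACTCAccctgactca
SMAD7, chr18:48873486-48873512, − strand: tgactcacccTGACTCActgtctgatc
SMAD7, chr18:48960691-48960717, − strand: aaaatatgtaTGACTCAtagtagtact

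The letter before TGACTCA was an A in 9 of the 12 sites (75%), where it was an A in 34.5% of the 6921 sites in all full-length regions. A T followed the site in 1 of 12 (8.33%), against 33.1% of all sites. Both letters together were found in 1 of 12 (8.33%), against 10.4% of all sites. The sites are few, and these differences were not tested. The SMAD7 pair at chr18:48873486-48873522 are neighbors, 10 bp apart in a single region, so each of their lines also contains letters of the other site in lower case.

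Both receptors and both activating SMADs had at least 1 region in the body or flanks, and the ligands and the inhibitors each included 1 gene without a region. Of all protein-coding genes 34.9% had none, so a gene at 0 does not set its role apart. TGFB1, TGFB2, TGFBR1, TGFBR2, SMAD2, SMAD3, SMAD7 and SKI had at least 1 full-length region in the body or flanks, and TGFB3 and SKIL had 0. Thus 8 of 10 members had a region in this window, where 65.1% of all protein-coding genes did. The same 8 of 10 had a region inside the gene body, where 33.7% of all genes did, and 6 of 10 had one within 3 kb of a transcription start of their own, where 27.5% of all genes did. These shares describe genes chosen with earlier results of these data known, and the differences were not tested. With the start of the canonical transcript alone, a count added after the data were seen, 2 of 10 members (TGFBR1 and TGFBR2) had a region within 3 kb of it, close to the 21.7% of all genes. Within the span of the canonical transcript 7 of 10 had one, against 29.4% of all genes, and the difference from the 8 was TGFB1, whose body region lay outside its canonical transcript. Long genes hold more regions, so counts in the body are set beside those of protein-coding genes whose body length was within a factor of 1.5. Of such genes, 30.5% (for TGFB3) to 55% (for SMAD3) had a region in the body, mostly above the 33.7% of all genes.

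**Figure D1:**
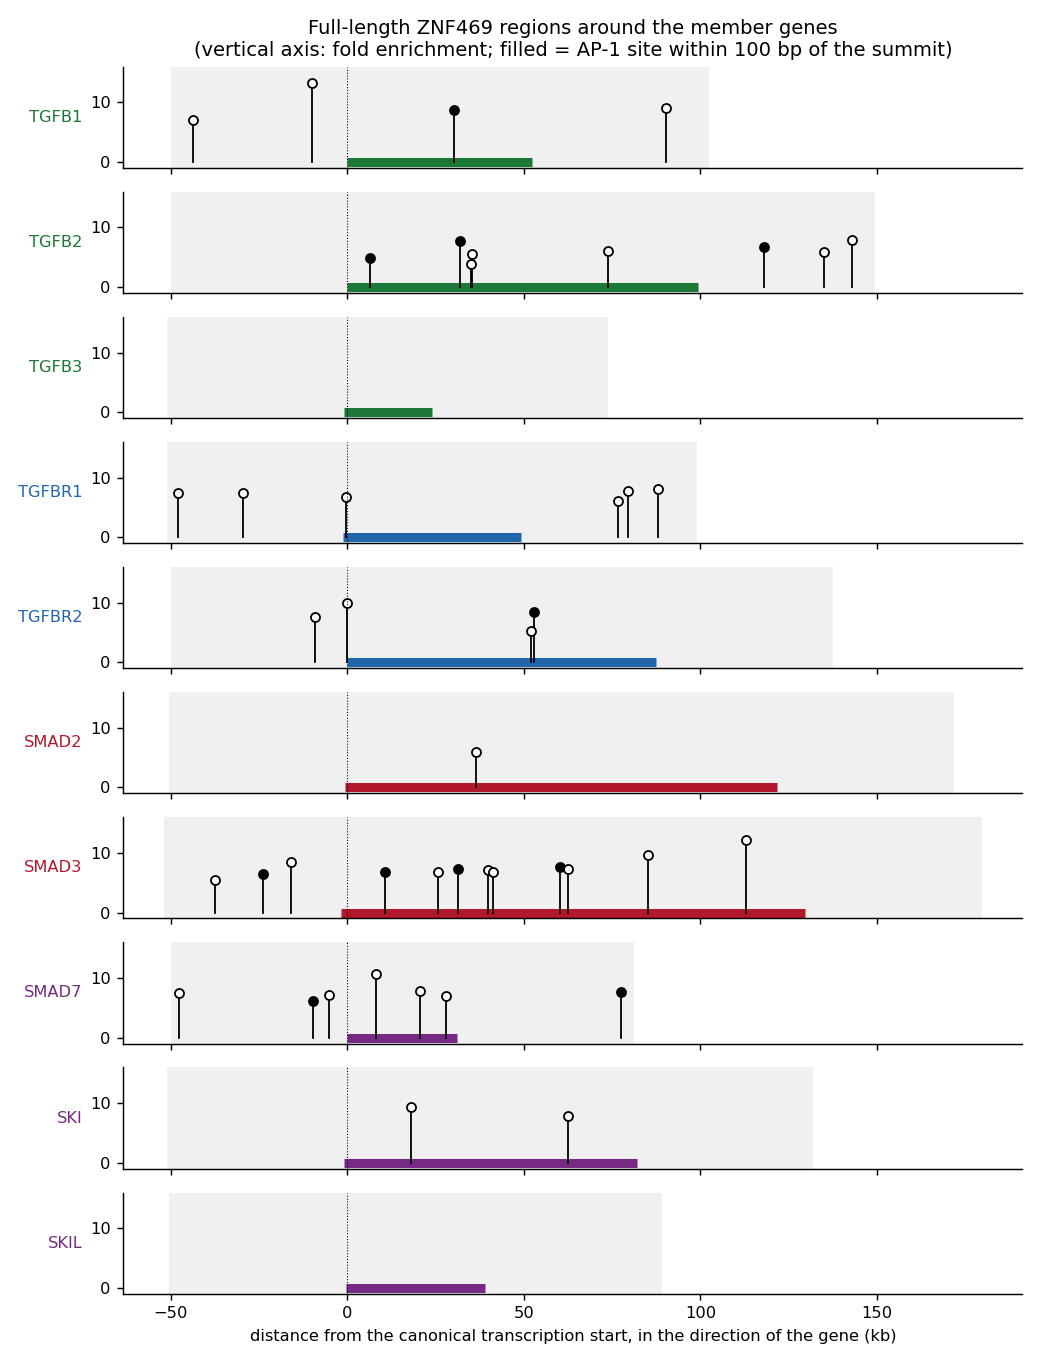
Full-length ZNF469 regions of each member gene. The horizontal axis is the distance of the summit from the canonical transcription start in kb, in the direction of the gene, the height of each pin is the fold enrichment, colored bars are gene bodies and shaded areas the body plus 50 kb. Filled pins have an AP-1 site within 100 bp of the summit (11 of 44), and the pins of SMAD3 and TGFB2 lie along introns, whereas TGFBR1 and TGFBR2 each have a pin at the canonical start.

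The density of regions varied widely among members. SMAD7 had 5.34 regions per 100 kb of body and flanks, SMAD3 5.19, TGFB2 4.01 and TGFBR1 4, all above the 90th percentile of all protein-coding genes, 2.93 per 100 kb. This density counts regions in the flanks whatever gene they touch. The gene body held 3 of 7 regions for SMAD7, 9 of 12 for SMAD3, 5 of 8 for TGFB2 and only 1 of 6 for TGFBR1. TGFB1 (2.63) and TGFBR2 (2.13) lay between the upper quartile (1.77) and that percentile, SKI (1.09) was above the median of 0.806, and SMAD2 (0.45) below it. As high a density as that of SMAD7 was reached by 1.56% of all genes and as high as that of SMAD3 by 1.71%, while 61.7% of genes were as dense as SMAD2 or denser. The order of neighboring genes rests on single regions: with 12 regions for SMAD3 and 7 for SMAD7, counting error does not separate their densities.

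**Figure D2:**
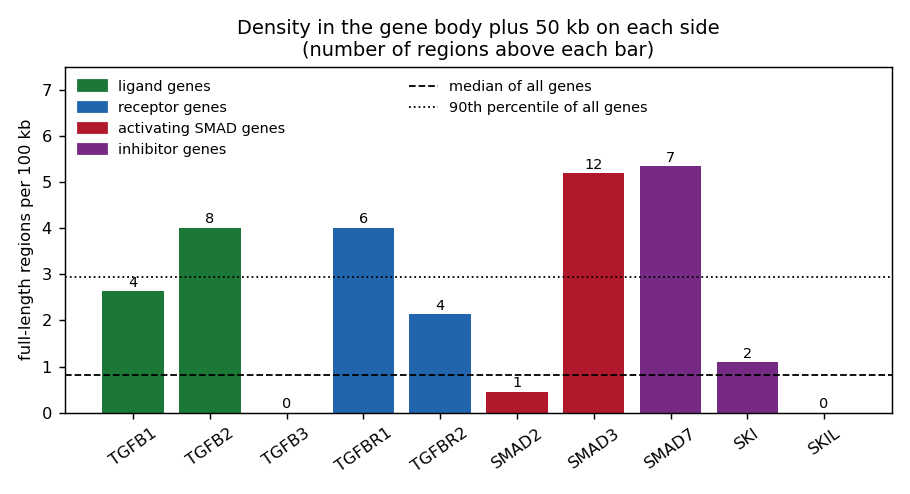
Full-length regions per 100 kb of gene body plus 50 kb on each side, with the number of regions above each bar and bars colored by role. Regions in the flanks count whatever gene they touch. SMAD7, SMAD3, TGFB2 and TGFBR1 pass the dotted line at the 90th percentile of all protein-coding genes (2.93), SMAD2 lies under the dashed median (0.806), and TGFB3 and SKIL are at 0.

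Among the ligands, TGFB2 alone was occupied within its canonical transcript. TGFB2 (ENSG00000092969, chr1:218345336-218444619, + strand) had 8 regions, 5 in the body and 3 downstream, and 0 within 3 kb of a start. All 8 fell in introns, those downstream in introns of the neighboring noncoding gene LINC02869. As many as 5 regions in the body were found in 85 of 3108 genes of similar length (2.73%), in which the median was 0.

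The TGFB2 regions were of modest enrichment. The strongest in the body, at chr1:218377228-218377719 in intron 1, had a fold enrichment over the local background of 7.78, a −log10 p of 23 and 35 fragments piled up at the summit (95% Poisson limits 24.4 to 48.7), with an AP-1 site 67 bp from the summit. Poisson limits on pileups and Wilson limits on shares cover counting error alone. A pair of close regions in intron 1, at chr1:218380553-218380814 and chr1:218380400-218380504, had folds of 5.53 and 3.84 with pileups of 19 and 13. The region of 3.84 had the lowest fold of all 44, ranked 18788 of 19108. The region nearest to the start, at chr1:218351568-218351971 in intron 1 with its summit 6.54 kb from the canonical start, had a fold of 4.84 with a pileup of 20 with an AP-1 site 26 bp from its summit, and the region in intron 2, at chr1:218419057-218419320, had a fold of 5.97 with a pileup of 15. The 3 downstream regions had folds of 5.86 to 7.96 and pileups of 28 to 40. That of pileup 40 lay over a background of 5.99 fragments, the highest background among the 44 regions. The TGFB2 region with the highest pileup was therefore not the one with the highest fold.

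TGFB1, the ligand most often tied to liver fibrosis (ENSG00000105329, chr19:41301587-41353922, − strand), had 4 regions, but none lay within 3 kb of its starts or within its canonical transcript. The region with the highest fold of all 44 (13.3, rank 219 of 19108) was 9.78 kb upstream of TGFB1 at chr19:41363705-41364062, directly at the starts of B9D2 and TMEM91. It had a −log10 p of 31.9 and a pileup of 32 (21.9 to 45.2) over a background of 1.48. A region 37.3 kb downstream, at the start of HNRNPUL1, had a fold of 9.07 with a pileup of 46 (33.7 to 61.4). One 43.4 kb upstream, at starts of EXOSC5 and BCKDHA, had a fold of 7.04 with a pileup of 13. The single region counted in the body, at chr19:41323510-41323911, was in the 3' UTR of CCDC97, with a fold of 8.63, a pileup of 28 and an AP-1 site 36 bp from its summit. A region in the body was found in 38.1% of genes of similar length. All 4 regions in the TGFB1 window therefore touched other genes, and which gene any of them acts on was not measured.

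TGFB3 (ENSG00000119699, chr14:75958097-75983011, − strand), the third ligand, had 0 regions in its body and flanks. Its body of 24.9 kb is the shortest of the 10, and 30.5% of genes of similar length had a region in the body. A missing region says that no record passed the threshold of the list at this depth.

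Both receptors had a region within 3 kb of the canonical start, and no other member did. This made 2 of 10 members, close to the 21.7% of all genes with such a region, in a count added after the data were seen. TGFBR1 (ENSG00000106799, chr9:99104038-99154192, + strand) had 6 regions, of which 1 lay in the body. That region, at chr9:99104715-99105120, lay mostly upstream of the canonical start and reached the first bases of exon 1, with its summit at −0.314 kb from that start, and had a fold of 6.74, a −log10 p of 14.2 and a pileup of 21 (13 to 32.1). The other 5 were 27.5 to 46.5 kb away from the gene with folds of 6.07 to 8.09 and pileups of 16 to 32. Of these, 1 was in an intron of COL15A1, which encodes a collagen chain, 2 were at starts of the noncoding genes ENSG00000227269 and RN7SL794P, and 2 were intergenic. None of the 6 held an AP-1 site.

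TGFBR2 (ENSG00000163513, chr3:30606601-30694142, + strand) had 4 regions. The region at its start, chr3:30606148-30606595 with the summit 0.148 kb upstream, had a fold of 10 (rank 2041), a −log10 p of 24.3 and a pileup of 29 (19.4 to 41.6) over a background of 1.99. Its limits overlapped those of the TGFBR1 start. In intron 3, chr3:30659161-30659905 had a higher pileup, 41 (29.4 to 55.6), but a lower fold, 8.39, over a background of 4.01, and its AP-1 site lay 12 bp from the summit. A neighbor in the same intron, chr3:30658439-30658919, had a fold of 5.23 with a pileup of 25, and an intergenic region 8.92 kb upstream had a fold of 7.59 with a pileup of 18. A count of 2 or more in the body was reached by 693 of 3337 genes of similar length (20.8%). The start and the intron thus differed in the presence of the AP-1 site and in background, while their pileups overlapped within counting error.

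The 2 activating SMADs were the most unequal pair. SMAD3 (ENSG00000166949, chr15:67063763-67195173, + strand) had 12 regions and SMAD2 (ENSG00000175387, chr18:47808957-47931146, − strand) had 1, although their bodies were 131 and 122 kb long. As many as 12 regions in the window were found in 88 of 20007 genes (0.44%). The body of SMAD3 held 9 regions, as did or exceeded 12 of 2623 genes of similar length (0.457%), in which the median was 1 and the highest count 16. Its regions covered 5266 bp, 4.01% of the body, and their pileups summed to 321 fragments, whereas the 1 region of SMAD2 covered 284 bp (0.232%) with a pileup of 12.

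The regions of SMAD3 were spread over intron 1 and reached intron 5, without one at the canonical start. The highest pileup of all 44 regions, 53 (39.7 to 69.3, rank 302 of 19108), was in intron 1 at chr15:67149998-67150799, with a fold of 9.73 and a −log10 p of 37.8. The highest fold of the gene, 12.2 (rank 427), was in intron 5 at chr15:67178318-67179078, 1.8 kb from the start of a shorter transcript, with a pileup of 39 (27.7 to 53.3) and a −log10 p of 34.7. Neither held an AP-1 site. At internal starts of SMAD3 itself, chr15:67125314-67126139 had a fold of 7.67 with a pileup of 40 with an AP-1 site 65 bp from the summit, and chr15:67127937-67128403 had a fold of 7.27 with a pileup of 35 without one. These were the regions that lay directly over a SMAD3 start.

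Of the other SMAD3 regions, chr15:67096830-67097179 and chr15:67076111-67076629 lay 1.4 and 1.36 kb from internal starts. They had folds of 7.39 and 6.81, pileups of 21 and 19, and AP-1 sites 11 and 5 bp from the summit, nearer than any other member site, of which that of TGFBR2 at 12 bp came next. The remaining 3 in the body were in intron 1 with folds of 6.73 to 7.1 and pileups of 23 to 46, and none held the site. Upstream, 3 regions in introns of the noncoding gene ENSG00000259347 had folds of 5.51 to 8.49 and pileups of 19 to 29, and that at 21.5 kb from the gene held an AP-1 site.

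SMAD2, by contrast, had its only region in intron 2 at chr18:47893982-47894265, 1.46 kb from an internal start. It had a fold of 5.98, a −log10 p of 9.36 and a pileup of 12 (6.2 to 21), the lowest pileup of the 44. These limits did not overlap those of the SMAD3 region with the highest pileup, 53. They did overlap those of the SMAD3 regions with pileups of 19 to 29. The background was 1.17 fragments under the SMAD2 region and 4.55 under the SMAD3 region of pileup 53. A region in the body was found in 53.5% of genes as long as SMAD2, so that its count was an ordinary one for its length.

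Among the inhibitors, SMAD7 was densely occupied, SKI had 2 regions and SKIL 0. SMAD7 (ENSG00000101665, chr18:48919853-48950965, − strand), which blocks the activated type I receptor, had 7 regions, 3 of them in a body of 31.1 kb. As many as 3 were found in 80 of 4329 genes of similar length (1.85%), and 5.1% of the body was covered, the highest share of the 10. The strongest, at chr18:48942363-48943081, overlapped exon 3 of the canonical transcript and the start of a shorter noncoding transcript. It had the highest −log10 p of all 44 (39.1), a fold of 10.7 with a pileup of 51 (38 to 67.1). The others in the body, chr18:48930042-48930425 at an internal start and chr18:48922813-48923296 in intron 3, had folds of 7.81 and 7 with pileups of 25 and 21.

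No region was found within 3 kb of the canonical SMAD7 start, but intergenic ones lay 4.94, 9.63 and 46.9 kb upstream and 46.2 kb downstream. Their folds were 6.12 to 7.63 and their pileups 17 to 33. AP-1 sites were present in that at 9.63 kb and, as a pair, in the downstream one, which was nearer to CTIF than to SMAD7. None of the 3 regions in the body held the site.

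SKI (ENSG00000157933, chr1:2227388-2310213, + strand), a nuclear co-repressor of SMAD complexes, had both its regions in intron 1. That at chr1:2246127-2246682, 1.31 kb from an internal start, had a fold of 9.34, a −log10 p of 19.2 and a pileup of 22 (13.8 to 33.3), and that at chr1:2290673-2291079 a fold of 7.86, a −log10 p of 15.2 and a pileup of 19 (11.4 to 29.7). Neither held an AP-1 site, and 663 of 3389 genes of similar length (19.6%) had as many. SKIL (ENSG00000136603, chr3:170357342-170396835, + strand), its close relative, had 0 regions in 139 kb of body and flanks, and 34.8% of genes of similar length had a region in the body.

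Taken by role, the numbers of regions per 100 kb were close. They came to 2.52 for the ligands (12 regions), 2.96 for the receptors (10), 2.87 for the activating SMADs (13) and 1.98 for the inhibitors (9). The Poisson limits of these counts, 6.2 to 21 for the ligands and 4.12 to 17.1 for the inhibitors, overlapped broadly. Within each role 1 gene held most of the regions: TGFB2 8 of 12, TGFBR1 6 of 10, SMAD3 12 of 13 and SMAD7 7 of 9. The median fold was 6.89, 7.52, 7.1 and 7.63 in the same order, and the median −log10 p 18.7, 15.4, 21.4 and 17.8, with ranges that overlapped throughout. The roles therefore differed less than the genes inside them.

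Promoters, defined as within 3 kb of any annotated start, held 16 of the 44 regions (36.4%, Wilson limits 23.8 to 51.1), where they held 39.3% of all full-length regions. Introns held 20 (45.5%, 31.7 to 59.9), where they held 35.8% of all. A further 7 were distal intergenic and 1 was in a 3' UTR. The limits took in the shares over the whole list in both cases. Of the 16 promoter regions, 11 were at a start of the member itself and 5 at starts of other genes only, 3 around TGFB1 and 2 around TGFBR1. By role, 3 of 12 ligand regions were in promoters and 8 in introns, 4 and 3 of 10 for receptors, 6 and 7 of 13 for activating SMADs, and 3 and 2 of 9 for inhibitors, which had 4 intergenic regions, all around SMAD7.

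By their medians, the regions of these genes were close to the whole list in fold and above it in coverage. Their median fold was 7.41, against 7.36 over all 19108 regions, while their median −log10 p was 17.5 against 15 and their median pileup 25.5 against 20. The background under them was also higher, with a median of 2.62 against 1.82 fragments. Among the 44, 20 (45.5%) had a pileup above 27, the upper quartile of the list, which 23.2% of all regions exceeded. Only 7 (15.9%) had a fold above 8.66, the upper quartile, exceeded by 25% of all. Since fold is the pileup over the background, the 2 rankings answer different questions. The part of the higher background in the higher pileups was not tested.

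**Figure D3:**
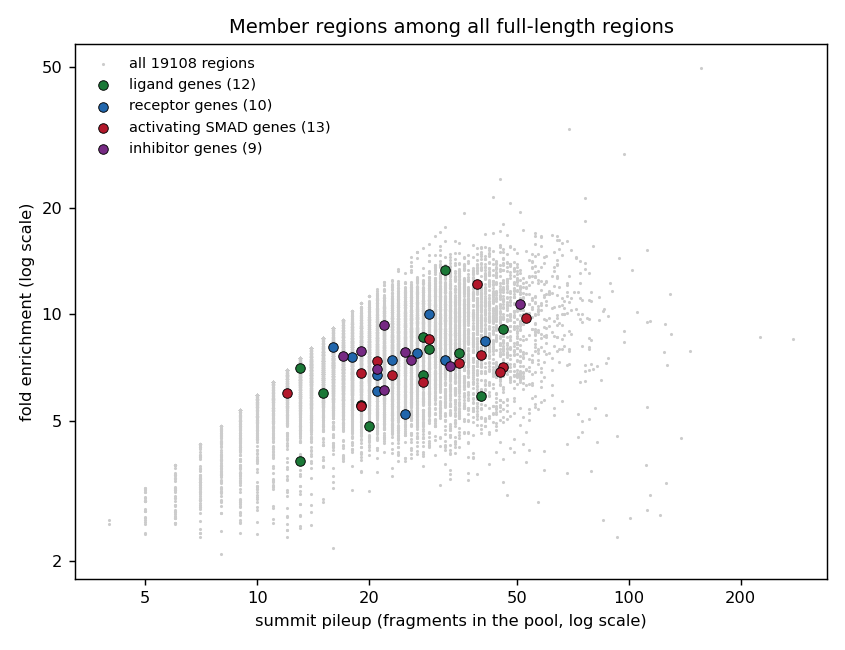
Fold enrichment against summit pileup, both on log axes, for all 19108 full-length regions (gray) and the 44 member regions, colored by role. Member regions spread from a pileup of 12 in SMAD2 to 53 in SMAD3 and from a fold of 3.84 in TGFB2 to 13.3 upstream of TGFB1, and every role covers much of this range.

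The 7 regions above that fold of 8.66 were those at B9D2 and HNRNPUL1 near TGFB1, at the TGFBR2 start, in introns 1 and 5 of SMAD3, at SMAD7 exon 3 and at the inner SKI start. Of these, 6 were in promoters, where 40.7% of all regions of such fold were. None of the 7 held an AP-1 site, where 34.8% of all regions of such fold did. Below a fold of 6.32, the lower quartile of the list, 2 of 10 member regions held it, from there to 7.36 it was 3 of 11, and from 7.36 to 8.66 it was 6 of 16, against 26%, 33.4% and 34.9% of all regions. These are small numbers and carry no test.

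An AP-1 site was present in 11 of 44 member regions (25%, 14.6 to 39.4), where it was present in 32.3% of all full-length regions. It was found in 3 of 16 promoter regions (18.8%, 6.59 to 43) against 22.2% of all promoter regions, and in 8 of 28 outside promoters (28.6%, 15.3 to 47.1) against 38.8%. Introns held it in 5 of 20 regions (25%) and intergenic sequence in 2 of 7 (28.6%), against 38.3% and 39.5%. In each of these classes the members were lower by their value, and in each the limits took in the share of the whole list. The single 3' UTR region, counted outside promoters, held the site. With 250 bp on each side of the summit the share of the members rose to 43.2% and that of the list to 43.6%, and over the whole record to 45.5% and 44.1%. The members were thus nearly level with the list at 250 bp and above it by value over the whole record.

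**Figure D4:**
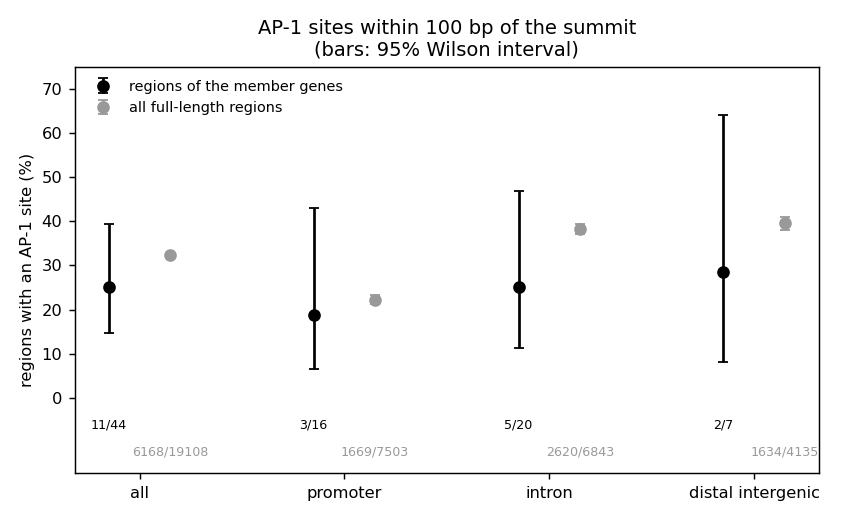
Percent of regions with an AP-1 site within 100 bp of the summit, for member regions (black) and all full-length regions (gray), over all regions and by class, with 95% Wilson intervals and the counts under each point. The member values lie below those of the list in each class shown, 25% against 32.3% over all, and each black interval includes the gray point.

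By role the site was in 4 of 12 ligand regions (33.3%, 13.8 to 60.9), 1 of 10 receptor regions (10%, 1.79 to 40.4), 4 of 13 activating SMAD regions (30.8%, 12.7 to 57.6) and 2 of 9 inhibitor regions (22.2%, 6.32 to 54.7). All 3 promoter regions with the site belonged to SMAD3, out of 6 for the activating SMADs. Of the 7 intron regions of the activating SMADs 1 held it, the one upstream of SMAD3 in an intron of ENSG00000259347. The ligands had it in 3 of 8 introns and in 0 of 3 promoters. The distance from summit to site had a median of 36 bp in the members and 39 bp over all, and 3 of 11 regions (27.3%) had it within 25 bp, against 34.5%.

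Other motifs were searched in the same windows on both strands. The TEAD site, GGAATG or CATTCC, was in 12 of 44 (27.3%) against 21.1% of the list, and the RUNX site, TGTGGT or ACCACA, in 7 (15.9%) against 17.5%. The CRE form TGACGTCA and the SMAD palindrome GTCTAGAC were in 0 member regions, where they were in 0.691% and 0.199% of all. The TEAD site was in 1 of the 11 member regions with an AP-1 site (Wilson limits 1.62 to 37.7%) and in 11 of the 33 without (19.8 to 50.4%). Over the whole list the shares were 20.6% and 21.4%. The limits of the members overlapped and took in these shares. The GC content of the windows had a median of 48.3% against 45.3%, and the width of the regions a median of 474 bp against 440 bp.

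With dZF-ZNF469, 0 of 10 members had a region in the body or flanks. Over all protein-coding genes 0.21% had one, so a count of 0 among 10 genes says nothing particular about them. The closest of the 54 regions lay 0.645 Mb from SMAD3, 2.05 Mb from SKI and 4.01 Mb from TGFB1, with 5.98 to 146 Mb for the others and none on the chromosome of TGFBR1. No AP-1 site was found in any of the 54.

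The wider pathway was examined through 73 further genes. Counts for them refer to the gene body unless the flanks are named. A full-length region lay in the body of 33 (45.2%), against 33.7% of all genes, and in the body or flanks of 51 (69.9%), against 65.1%. These shares of all genes were not matched for gene length. A region lay within 3 kb of an own start in 23 of 73, where 27.5% of all genes had one, and 0 had a dZF region. Of 62 regions in their bodies, 21 held an AP-1 site, near the 32.3% of all full-length regions. The members, at 8 of 10, stood above this list by value, and the difference was not tested.

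Regulators inside the cell had the highest share of genes with a region in the body, 12 of 17, with 24 regions. Of all genes 33.7% had one, and 28.2% to 69.4% of the genes as long as each regulator. The order of the roles was not matched for gene length. With the flanks included, the share was 82.4% for the regulators and 91.7% for the genes of latency and activation, against 65.1% of all genes. The regulators SMURF2 and NEDD4L are both ubiquitin ligases, the first brought to the receptor by SMAD7, the second acting on activated SMAD2 and SMAD3. Each had 5 regions, the highest counts of the list. As many as 5 were found in 3.87% of genes as long as SMURF2 and in 18.8% of those as long as NEDD4L. ZFYVE9 (SARA), which presents SMADs to the receptor, had 3, and 24.7% of genes of similar length had as many. USP15, TGIF2, LEMD3, SNW1 and FKBP1A had 0 in the body. Of the 7 antagonists that act outside the cell or at its surface, FSTL1 alone had regions in the body (2). FST, NOG, GREM1, CHRD, BAMBI and DCN had 0 there, although 4 of the 7 antagonists had a region with the flanks included. Of the genes as long as each antagonist, 9.75% to 39.5% had a region in the body.

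Genes of latency and activation had a region in the body in 6 of 12, where 33.7% of all genes did, and 25% to 69.7% of the genes as long as each. They held 13 regions, of which 9 had an AP-1 site, where 32.3% of all regions did. ITGB5, an integrin chain that helps to release TGF-beta, had 4 regions with the highest fold of the list (14), 3 of them with the site. As many as 4 were found in 9.53% of genes as long as ITGB5. LTBP1, which anchors latent TGF-beta in the matrix, had 4, all with the site, in a body of 453 kb. Of genes of similar length to LTBP1, 69.7% had a region in the body and 24.8% had as many as 4. FURIN, the protease that cleaves the ligand precursors, had 1 with a fold of 12.8, and LTBP2 1 with 11.5. LTBP4, THBS1, ITGAV, ITGB6, NRROS and LRRC32 had 0 in the body, and of these NRROS alone had 0 with the flanks as well.

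Among other receptors 4 of 11 were occupied in the body, where 33.7% of all genes were, and 26.1% to 69.6% of the genes as long as each receptor. TGFBR3 (betaglycan) and ACVR1 had 3 regions each, and ENG (endoglin) had 2 with a fold of up to 11.3. As many were found in 27% of genes as long as TGFBR3, 17% of those as long as ACVR1 and 8.85% of those as long as ENG. ACVRL1, ACVR1B, ACVR1C, ACVR2A, ACVR2B, BMPR1A and BMPR2 had 0 in the body. Of other SMADs, SMAD6, the inhibitory SMAD of the BMP branch and a neighbor of SMAD3 on chromosome 15, had 2 and the shared partner SMAD4 1, whereas SMAD1, SMAD5 and SMAD9, the activating SMADs of the BMP branch, had 0. This made 2 of 5 with a region in the body, where 33.7% of all genes had one, and 38.9% to 45.4% of the genes as long as each SMAD. As many as 2 were found in 19% of genes as long as SMAD6. Other ligands of the superfamily had a region in 2 of 10 (BMP4 and BMP6), with BMP2, BMP7, INHBA, INHBB, GDF15, NODAL, AMH and MSTN at 0 in the body. Of the genes as long as each of these ligands, 13.3% to 57.6% had a region in the body.

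Of 11 direct targets of TGF-beta, 6 had a region in the body, where 33.7% of all genes did. Most of these targets are short, and of the genes as long as each, 3.88% to 33.6% had one. The difference was not tested. CDKN2B, a cell cycle inhibitor, had the highest fold of them (11.6). ID2, JUNB, SNAI1, SNAI2 and CDKN1A had 0 there.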

How the data were processed

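CUT&RUN was performed by the authors in LX-2 cells, 3 libraries per construct. Per the submitters' processing notes, reads were demultiplexed with bcl2fastq, aligned with Bowtie2 2.3.4.3 to hg38 and regions called with MACS2 2.2.5 (R 4.2.1 and deepTools 3.5.1 are also named). The use of a control is not given in the sources used here. The authors deposited 1 list per construct after combining libraries by irreproducible discovery rate. Each deposited record holds a score (the scaled discovery rate), a fold ratio over the local background, a −log10 p-value, a −log10 q-value that was not used, and the summit position. Read depth per library is unknown.

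Pileup and background at each summit were solved from fold and −log10 p with a pseudocount of 1, which recovered whole fragments in 100% of records in both lists and was tested on simulated data (2000 of 2000 made records right). Regions were classified with GENCODE 44 in the order promoter, UTR, exon, intron, downstream 300 bp, intergenic. Motifs were searched in 201 bp at the summit. Python 3.11.15, numpy 2.4.6, pandas 2.3.3, scipy 1.17.1, pysam 0.24.0 and matplotlib 3.10.9 were used. Any overlap of 1 bp counted. The 10 members and the 73 pathway genes were chosen with earlier results of these data known. All members were named, with each record in the body or at an own start described singly unless a gene had more than 6 (then the 4 highest by fold, the highest pileup and those at starts), and pathway genes were named for the 5 highest counts, the 5 highest folds and counts of 0. SMAD4, SMAD6, BMP4, BMP6 and FSTL1 are outside this rule and were chosen after their values were seen. A single gene of the list is not reported here by name. Alternatives varied flanks, list stringency, promoter and motif windows, region position, ownership and the starts used. Fragments amplified by PCR are not independent molecules, so the intervals cover counting error only.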

Additional observations from a re-analysis of the deposited data

How the results depend on the processing

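Over 16 results, 143 alternatives were computed, of which 17 were chosen after seeing the data. Of these, 102 stayed within 1.5 times the count or within the counting interval and 41 did not. Most of the latter kept fewer records by construction. Keeping the upper 50% by fold left 23 of 44 regions, an intron share of 30.4%, medians of 7.96 (fold) and 20.7 (−log10 p), 19 pathway genes, and 1.05, 1.1 and 1.32 regions per 100 kb for ligands, activating SMADs and inhibitors. The upper 25% by fold left 7 regions, 3 members with one in the body, 85.7% in promoters, 14.3% in introns, 0% with an AP-1 site in all regions, in promoters and outside them, medians of 10 and 32, 11 pathway genes, and 0.42, 0.296, 0.441 and 0.441 per 100 kb for ligands, receptors, activating SMADs and inhibitors. The upper 25% by pileup, added after seeing the data, left 21 regions, 5 members in the body, 3 at an own start, medians of 7.79 and 23, 17 pathway genes, and 1.47, 1.18, 1.76 and 0.441 per 100 kb. The body alone left 24 regions and gave 3.26 per 100 kb for inhibitors. A promoter of 1 kb, or starts of protein-coding transcripts alone, each gave 20.5% of member regions in promoters. The share of the whole list under these definitions is not given here, so 20.5% cannot be set against the 39.3% of the list. The canonical start alone, added later, left 2 members at an own start. Searching 250 bp on each side gave an AP-1 site in 43.2% of regions and 50% of those outside promoters, and the whole record 45.5% and 57.1%.

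No paired analysis was possible because the 3 libraries of a construct were pooled into a single list without values of their own, and leaving out a library was not possible for the same reason. With 1 list per construct nothing separates the construct from its cell line, and a gene at 0 has no record past the threshold of its list.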
